A study of Mus musculus with 6 samples.

Results

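The Gm23935 family is a set of 6 short entries of the mouse gene annotation (Gm23935, Gm25911, Gm24270, Gm24187, Gm24245 and Gm23388), all annotated as microRNA and nearly identical in sequence. They were taken by symbol, 6 of the 53379 Ensembl genes listed in each library. The family was chosen by the level of Gm23935, which had the highest FPKM of all entries in these libraries, and by the likeness of the other entries to its sequence. The level of Gm23935 is therefore given as a description. The libraries hold RNA of small extracellular vesicles, membrane-bound particles that cells release, from wild-type embryonic cortical neurons of the mouse in culture. There were 3 libraries labelled control (NorEV, vesicles of normoxic neurons in the series text) and 3 labelled OGD/R, read here as the hypoxic group (HypEV). Both groups share genotype and cell type, and OGD/R is not spelled out in the labels. The labels do not say whether replicates were grown apart. The tests below thus weigh differences against library-to-library spread, part or all of which may be technical.

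MicroRNAs are short RNAs that are cut from a hairpin precursor and lower the output of messenger RNAs that pair with their seed. A predicted microRNA entry need not make a mature microRNA. Sequence closely resembling this family also occurs near the 3′ end of the large-subunit ribosomal RNA, which is background knowledge and was not tested here, since no ribosomal RNA sequence was used. Ribosomal RNA is the bulk of cellular RNA and is commonly found in vesicle preparations.

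The sequences are shown because they differ so little while the values of the entries differ by orders of magnitude. They are the GENCODE M21 transcripts of GRCm38, 5′ to 3′, with bases that differ from Gm23935 in capitals.
Gm23935: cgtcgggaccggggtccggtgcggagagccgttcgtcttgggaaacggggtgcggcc
Gm24270: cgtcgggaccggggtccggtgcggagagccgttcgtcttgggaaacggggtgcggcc
Gm24245: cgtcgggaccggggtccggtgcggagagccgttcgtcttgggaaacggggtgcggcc
Gm24187: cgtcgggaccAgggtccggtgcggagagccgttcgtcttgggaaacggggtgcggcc
Gm25911: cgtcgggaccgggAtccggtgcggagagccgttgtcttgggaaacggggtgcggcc
Gm23388: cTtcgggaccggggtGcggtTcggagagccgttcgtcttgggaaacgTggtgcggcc
Gm23935, Gm24270 and Gm24245 are identical over all 57 nucleotides. Counted from 1 at the 5′ end of Gm23935, Gm24187 carries G11A, Gm25911 carries G14A and C34del, and Gm23388 carries G2T, C16G, G21T and G48T. Identity to Gm23935 is 98.2% for Gm24187, 96.5% for Gm25911 and 93.0% for Gm23388. Of the 20-nucleotide windows in each entry, 11 of 38 in Gm24187, 33 of 37 in Gm25911 and 31 of 38 in Gm23388 occur in no other member, and 0 of 38 in each identical copy. None of the family's 113 distinct windows occurs on either strand of the annotated transcripts of the other 55335 genes. No large-subunit ribosomal RNA sequence was added to that search, so it does not show that the windows are unique to the family.

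**Figure D1:**
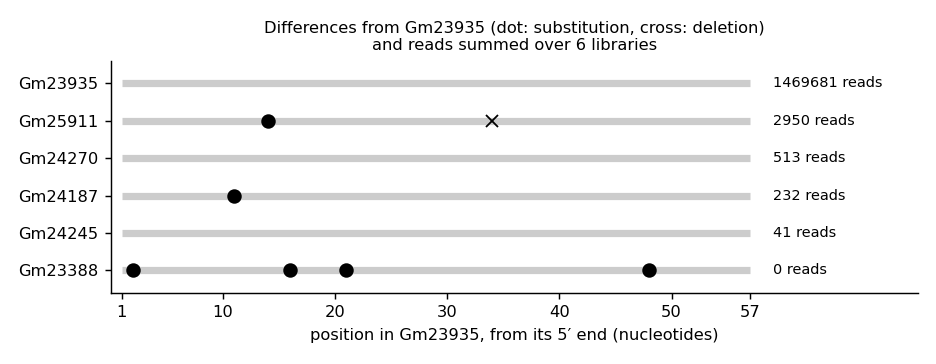
Differences of each member from Gm23935 along its 57 nucleotides (dots: substitutions, cross: the deletion of Gm25911), with reads summed over the 6 libraries at the right. The identical copies Gm23935, Gm24270 and Gm24245 had 1469681, 513 and 41 reads.

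The copies are scattered over the genome (GRCm38). Gm23935 lies on chromosome 16 from 11144125 to 11144181, plus strand, in an intron of Zc3h7a, which is on the opposite strand. Gm24270 lies on chromosome 9 from 56223715 to 56223771, minus strand, in an intron of Peak1 on the same strand. Gm23388 lies on chromosome 8 from 85112012 to 85112068, minus strand, in an intron of Zfp791 on the same strand. Outside any other annotated gene are Gm25911 (chromosome 1, 167340369 to 167340424, minus strand), Gm24187 (chromosome 13, 9834469 to 9834525, minus strand) and Gm24245 (chromosome 4, 139338304 to 139338360, plus strand).

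The genes around the intronic copies had levels far from those of the copies. Zc3h7a, which codes for a zinc finger protein, had 34.2, 22.8 and 25.2 FPKM (fragments scaled to gene length and to the counted fragments of the library) across the NorEV libraries and 16.4, 36.5 and 29.9 across those of HypEV. Its lowest value was in HypEV 1, where Gm23935 was highest and where the family's share lowers the FPKM of all other genes. Peak1, which codes for a pseudokinase, had 16.2, 19.8 and 15.8 FPKM in the NorEV libraries and 5.09, 19.9 and 8.85 in those of HypEV, against 211 to 1913 for Gm24270 in its intron. Zfp791, which also codes for a zinc finger protein, was listed above 0 in all libraries (2.83 to 8.45 FPKM), whereas Gm23388 in its intron was listed at 0 in all of them.

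The members are rich in G and C and were predicted to fold into a pair of short hairpins. Their GC content was 68.4 to 73.7%, higher than in 95.9 to 97.7% of the microRNA entries of the annotation (2201 distinct symbols), whose median was 50.8%. RNAfold placed 2 hairpin loops in each of the 6 members, while 76.1% of all microRNA entries folded with a single loop. The minimum free energy was -22.5 kcal/mol for the identical copies, -23.2 for Gm25911, -19.8 for Gm24187 and -19.9 for Gm23388. Per nucleotide this was -0.414 to -0.347, on both sides of the median of all microRNA entries (-0.369). Members are shorter than the median microRNA entry of 89 nucleotides, which bears on the number of loops.

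The family took from less than 1% to nearly 50% of the reads counted on genes. Whole reads could be read back from the values: NorEV 1, 2 and 3 held 1092724, 1413374 and 1494499 fragments on genes, while HypEV 1, 2 and 3 held 2141611, 1445674 and 1320916. The family held 4.34% (95% Wilson interval 4.30 to 4.37), 0.561% (0.548 to 0.573) and 0.303% (0.294 to 0.312) of them in NorEV 1, 2 and 3. In HypEV 1, 2 and 3 it held 49.6% (49.5 to 49.7), 1.97% (1.95 to 1.995) and 24.5% (24.4 to 24.5). Intervals here and below cover counting error only. HypEV 1 and HypEV 3 stood far above the rest, HypEV 2 lay below NorEV 1, and the groups overlapped.

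The group means were 1.73% ± 2.26 in NorEV and 25.3% ± 23.8 in HypEV (SD, n = 3 each). Nearly all family reads were on Gm23935, whose level the family was chosen by. The difference of 23.6 percentage points is therefore given as a description, and no p-value is drawn from it. It was 11.5 points without HypEV 1 and 35.3 without HypEV 2. Reads outside the family numbered 1045344, 1405452 and 1489975 for NorEV and 1079637, 1417156 and 997817 in HypEV. Since FPKM divides by all counted reads, the values of all other genes in HypEV 1 stand at 50.4%, and in HypEV 3 at 75.5%, of what they would be without the family.

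Among the entries annotated as microRNA the family was dominant in most libraries. Of the reads on the 2202 such entries it took 91.1, 66.5 and 49.8% across the NorEV libraries and 99.6, 86.3 and 98.8% across HypEV. The highest microRNA entry outside the family was Mir6236 in NorEV 1 (1266 reads) and in HypEV 1, 2 and 3 (1901, 421 and 1371 reads). It was Gm22184 in NorEV 2 and NorEV 3 (356 and 213 reads). The number of microRNA entries above 0 was 502, 695 and 761 for NorEV and 390, 635 and 452 for HypEV, and it was lowest where the family share was highest. The part of the family's share in these numbers was not tested.

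**Figure D2:**
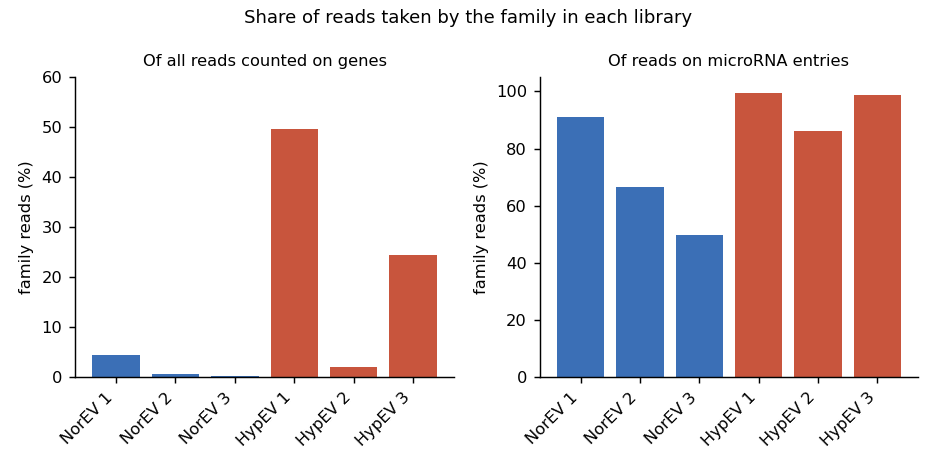
Percent of reads on the 6 family members in each library, of all reads counted on genes (left) and of reads on entries annotated as microRNA (right). Bars start at 0; HypEV 1 and HypEV 3 reach 49.6% and 24.5% at the left, and the other 4 libraries lie at or below 4.34%.

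Gm23935 was the highest entry of every library by FPKM. It had 755524, 97229 and 52074 FPKM in NorEV 1, 2 and 3, from 47058, 7833 and 4436 reads. In HypEV 1, 2 and 3 it had 8682921, 342959 and 4278703 FPKM, from 1059940, 28261 and 322153 reads. NorEV 1 stood above HypEV 2, and the highest library exceeded the lowest 167-fold. The log2 fold change of HypEV against NorEV was 3.90 ± 1.41 (SE, limma) on the log2(FPKM + 1) scale. It is given as a description, and no p-value is drawn from it.

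Gm25911, which differs by a substitution and a deletion, followed the same order of libraries on a lower level. It had 3481, 859 and 275 FPKM in NorEV (213, 68 and 23 reads) and 15192, 1779 and 9193 FPKM in HypEV (1822, 144 and 680 reads). The groups overlapped, with NorEV 1 above HypEV 2. The log2 fold change was 2.74 ± 1.12 (SE, limma, adjusted p = 0.748). Among all entries by FPKM it ranked between place 3 (HypEV 1) and place 38 (NorEV 3).

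Gm24270, identical to Gm23935, varied much less. It had 1140, 211 and 399 FPKM in NorEV (71, 17 and 34 reads) and 1319, 1044 and 1913 FPKM in HypEV (161, 86 and 144 reads). The HypEV libraries lay close together, and of NorEV only library 1 reached into their range. The log2 fold change was 1.59 ± 0.70 (SE, limma, adjusted p = 0.748), and the highest library exceeded the lowest 9.06-fold.

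Gm24187, with its single substitution, had 530, 24.8 and 282 FPKM in NorEV (33, 2 and 24 reads) and 385, 97.1 and 1567 FPKM in HypEV (47, 8 and 118 reads). Library 2 was the lowest of each group, and the groups overlapped broadly. The log2 fold change was 1.31 ± 1.36 (SE, limma, adjusted p = 0.806), and it was 0.01 without NorEV 2 and 0.31 without HypEV 3.

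Gm24245, also identical to Gm23935, did not follow it. It had 80.3, 24.8 and 82.2 FPKM in NorEV (5, 2 and 7 reads) and 32.8, 231 and 53.1 FPKM in HypEV (4, 19 and 4 reads). Its highest library was HypEV 2, the HypEV library with the smallest family share. The log2 fold change was 0.43 ± 0.86 (SE, limma, adjusted p = 0.905), and it was -0.13 without NorEV 2 and -0.39 without HypEV 2.

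Gm23388, the most divergent member, was listed at 0 in all 6 libraries. At these depths a count of 0 allows up to 3 reads, which is 0.000140 to 0.000275% of the counted reads of a library, or 24.6 to 48.2 FPKM at 57 nucleotides. It did not reach the mean of 1 FPKM needed for the test. The other 5 members did.

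**Figure D3:**
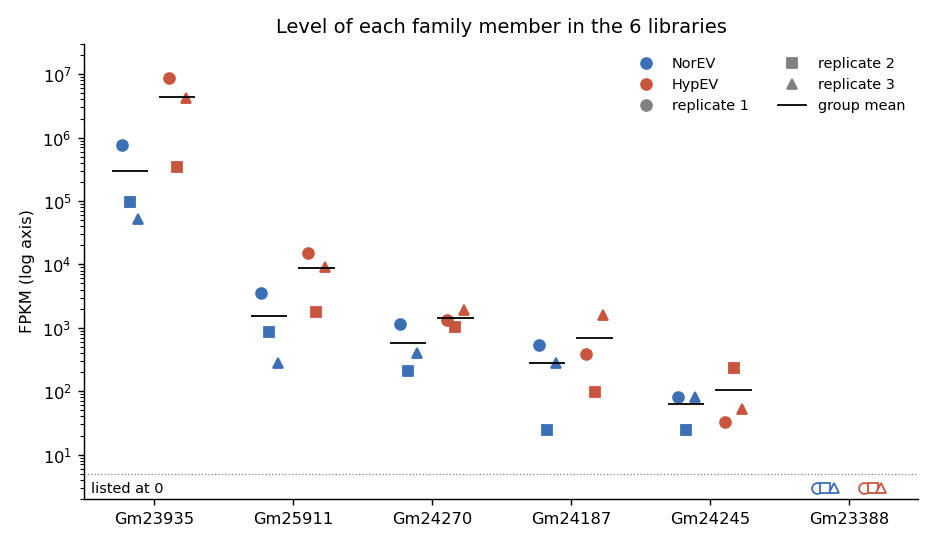
FPKM of each member in every library on a log axis; lines are arithmetic group means (n = 3) and open symbols below the dotted line are values listed at 0. NorEV and HypEV overlap for all 5 members with reads, and Gm23935 lies above the others in all 6 libraries.

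Gm23935 is described only, and of the 5 members in the fit none of the others passed. Nor did any of the 44125 tested entries (0%; limma without a variance trend, 2821 with an unadjusted p under 0.05). All 5 had a positive log2 fold change, beside a median of -0.44 over all tested entries. All HypEV libraries lay above all NorEV libraries in 1.1% of the tested entries and in 0 of the 5 members. limma-voom on the reads, which called 0.546% of 42345 entries, called Gm23935 and Gm25911 higher. It gave Gm23935 a standard error of 0.112 log2 units, against 1.41 in limma. For Gm25911 it gave 0.404, against 1.12 in limma. In both entries NorEV 1 lay above HypEV 2, and the p-values of limma-voom for them are therefore not used. With the family left out of the library totals, a choice made after seeing the data, limma-voom called 0.13% of the entries. Among them were Gm25911 (log2 fold change 3.15 ± 0.67 SE, adjusted p = 0.0210) and Gm24270 (2.06 ± 0.44 SE, adjusted p = 0.0248). Gm23935 was not among them, and no conclusion is drawn from its calls. These calls stand beside groups that overlap in FPKM.

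In mean FPKM the order of the members was Gm23935, Gm25911, Gm24270, Gm24187, Gm24245 and Gm23388. Gm23935 exceeded Gm25911 in 6 of 6 libraries, by 113 to 572 times. Gm25911 exceeded Gm24270 in 5 of 6 (not in NorEV 3), Gm24270 exceeded Gm24187 in 6 of 6, and Gm24187 exceeded Gm24245 in 4 of 6. The ranges of each pair of neighbours from Gm25911 to Gm24245 overlapped across libraries.

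The 3 identical copies were counted at very different levels. Of their joint reads, Gm23935 held 99.8, 99.8 and 99.1% across the NorEV libraries and 99.98, 99.6 and 99.95% across those of HypEV. Its FPKM exceeded that of Gm24270 by 663, 461 and 130 times in NorEV and by 6583, 329 and 2237 times in HypEV. It exceeded Gm24245 by 9412, 3916.5 and 634 times in NorEV and by 264985, 1487 and 80538 times in HypEV. A read of their sequence that lies within the 57 nucleotides has at least 3 equally good places in this annotation. Where it misses the bases that differ, it matches other members as well. The sources used here give neither the read length nor the aligner nor the treatment of reads with several places, so the placement behind these differences was not tested.

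Reads outside Gm23935 were a larger share of the family where the family was scarce. Since Gm23935 is nearly all of the family, that order is in part built in. Of the family reads, those outside Gm23935 made up 0.680, 1.12 and 1.95% across NorEV and 0.192, 0.901 and 0.293% across HypEV. Gm23935 thus held 98.8% ± 0.64 of the family reads in NorEV and 99.5% ± 0.38 in HypEV (SD, n = 3). For the difference of 0.788 points, two-sided exact permutation gave p = 0.2. With 3 against 3 libraries this test cannot go below 0.1, so it cannot decide whether the groups differ. The difference was 0.440 points without NorEV 3, the library with the fewest family reads.

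**Figure D4:**
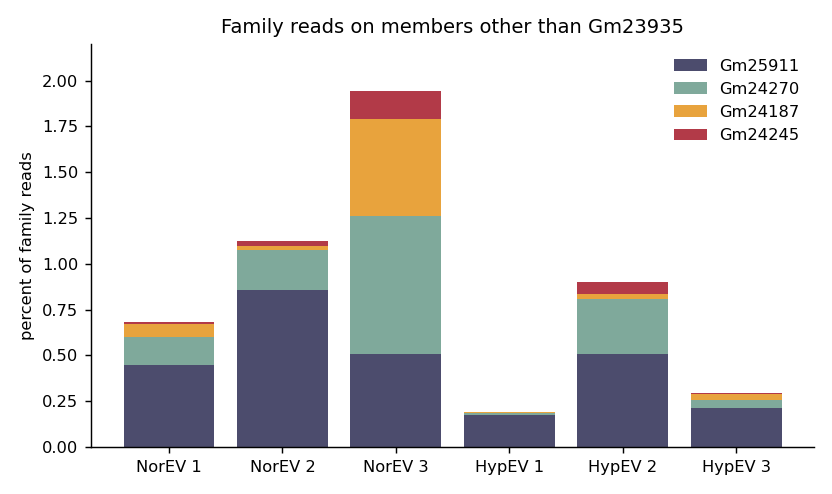
Percent of family reads on the members other than Gm23935, stacked by member, in each library. The stacks reach 1.95% in NorEV 3 and 0.192% in HypEV 1; Gm23388 has no reads and Gm23935 holds the remainder.

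Gm25911 can be told from Gm23935 by its sequence, and its reads per Gm23935 read moved over a narrow range next to the 167-fold range of Gm23935. Per 10000 reads of Gm23935, NorEV 1, 2 and 3 had 45.3, 86.8 and 51.8 reads of Gm25911, and HypEV 1, 2 and 3 had 17.2, 51.0 and 21.1. HypEV 1 and HypEV 3 had the lowest ratios, and HypEV 2 lay between the NorEV libraries. Reads of Gm23935 are the divisor and were most numerous in HypEV 1 and HypEV 3, so this order is in part set by arithmetic. As a share of the family, Gm25911 held 0.858% (95% Wilson interval 0.678 to 1.09) in NorEV 2 and 0.172% (0.164 to 0.180) in HypEV 1. These are the highest and the lowest library, and their intervals hold no spread between libraries. The log2 ratio was -7.41 ± 0.50 in NorEV and -8.56 ± 0.83 in HypEV (SD, n = 3), a difference of -1.15. Two-sided exact permutation gave p = 0.2. With 3 against 3 libraries it cannot go below 0.1, so it cannot decide whether the groups differ.

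The other members moved less in step with Gm23935. Per 10000 reads of Gm23935, Gm24270 had 15.1, 21.7 and 76.6 reads across NorEV and 1.52, 30.4 and 4.47 across HypEV. Gm24187 had 7.01, 2.55 and 54.1 across NorEV and 0.443, 2.83 and 3.66 across HypEV. Gm24245 had 1.06, 2.55 and 15.8 across NorEV and 0.0377, 6.72 and 0.124 across HypEV. For all 3 the ratio was highest in NorEV 3 and lowest in HypEV 1, the libraries with the fewest and the most Gm23935 reads. Reads of Gm23935 are the divisor of the ratio and vary far more than those of these members. This order is therefore largely set by arithmetic.

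**Figure D5:**
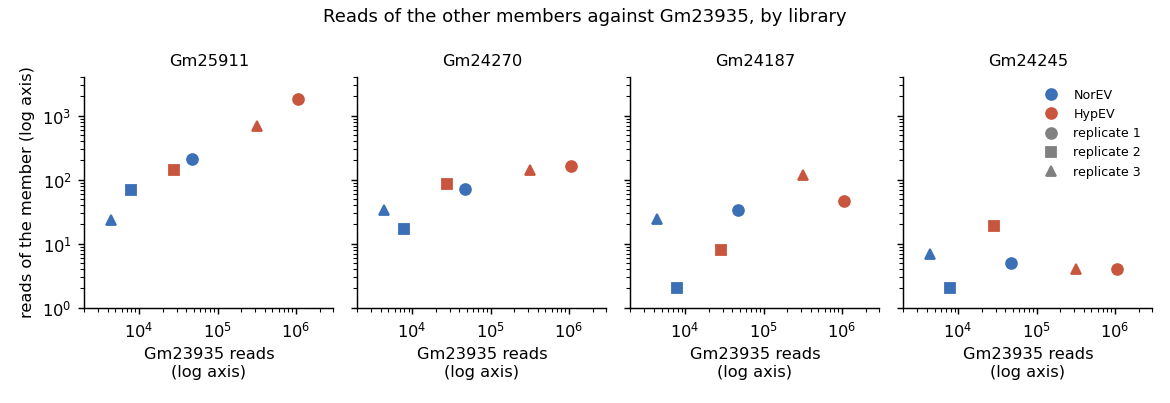
Reads of each other member with reads (vertical, log axis) against reads of Gm23935 (horizontal, log axis), a point per library. Gm25911 climbs from 23 to 1822 reads as Gm23935 climbs from 4436 to 1059940, while Gm24245 stays between 2 and 19 reads.

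Genes outside the family whose pattern over the 6 libraries was most like that of Gm23935 were sought among the 10537 genes above 0 in all libraries with a mean of at least 10 FPKM. Likeness was Pearson's r of log2 values scaled to the reads outside the family, given as a description over 6 libraries that differ in depth. The highest were Asxl3 (r = 0.996), Rsrc2 (0.993), Gm37111 (0.991), Mdk (0.991) and Wipf2 (0.989), and 60 genes exceeded 0.95. In FPKM as deposited, not the scaled values that gave r, their own range was small next to that of Gm23935. Asxl3, a chromatin regulator, lay between 11.4 and 17.4 FPKM in the NorEV libraries and between 17.2 and 21.4 in HypEV. On the values as deposited r was 0.861 for Asxl3, 0.233 for Rsrc2, 0.910 for Gm37111, 0.811 for Mdk and -0.18 for Wipf2. The scaling factor rises with the family's reads, nearly all of them on Gm23935. It thus carries the pattern of Gm23935 into every gene, and the scaled r is in part built in. Within the family, r on the scaled values was 0.991 for Gm25911, 0.916 for Gm24270, 0.725 for Gm24187 and 0.0642 for Gm24245. As deposited it was 0.986, 0.840, 0.641 and -0.21 in the same order.

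Entries related to ribosomal DNA and other abundant structural RNAs form the nearest set of genes by background knowledge. Of 14 names, 11 were found and 10 were tested, and 0 passed in either direction. Their median log2 fold change was 0.94, beside -0.44 over all tested entries, with 8 above and 2 below 0. Mir6236, a microRNA entry known for its match to ribosomal RNA, had 9419, 615 and 152 FPKM in the NorEV libraries. In those of HypEV it had 7217, 2368 and 8438 FPKM (log2 fold change 2.45 ± 1.41 SE, limma, adjusted p = 0.772). Like Gm23935 it was low in NorEV 2 and NorEV 3. Its FPKM was highest in NorEV 1, but its reads were most numerous in HypEV 1 (1901, against 1266 in NorEV 1). The family's share lowers the FPKM of other genes to 50.4% in HypEV 1 and to 75.5% in HypEV 3. Gm42418, the highest entry of this set, had 7072, 482 and 3844 FPKM across NorEV and 3400, 3125 and 18259 across HypEV. In FPKM as deposited NorEV 3 lay above HypEV 1 and HypEV 2, an order that the lowering in HypEV 1 bears on. Gm26917 varied little, from 200.2 to 338 FPKM across NorEV and from 263 to 411 across HypEV. Rn7sk, the RNA of the 7SK particle that restrains transcription elongation, had 13.8, 128 and 875 FPKM across NorEV and 868, 94.0 and 2.29 across HypEV. It was lowest in HypEV 3 and high in HypEV 1, the libraries with the most Gm23935.

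The labelled cell type was checked against 8 neuronal markers, which were all listed above 0 in every library and summed to 66.9 to 92.9 FPKM in NorEV and 44.9 to 84.2 in HypEV. Sums over 5 astrocyte markers (48.5 to 69.5 and 28.5 to 64.9) and 5 microglial markers (45.9 to 73.2 and 50.001 to 75.6) were of a similar size, so these markers do not single out neurons. Endothelial markers (3 genes) summed to 33.9 to 54.6 FPKM in NorEV and 18.6 to 40.8 in HypEV. Oligodendrocyte markers (4 genes) summed to 12.2 to 36.4 and 13.7 to 34.2, and erythroid markers (4 genes) to 3.91 to 33.6 and 11.9 to 25.5. None of the markers was at 0 in all libraries, and their part in the family's levels was not tested.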

How the data were processed

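Per the labels' protocols, Trizol was used for the RNA and an Epibiotek mini longRNA-seq kit for the libraries. The authors deposited FPKM values for 53379 Ensembl genes per library, in tables whose names mention HTSeq, a read counter. The sources used here name no aligner, build or annotation. Of the identifiers 53274 were found in GENCODE M21 (GRCm38), whose transcripts gave lengths and sequences. With these lengths 95.7 to 96.1% of the values above 0 in a library were whole reads (tolerance 0.01), including all values of the family. One read at 57 nucleotides was worth 8.19 to 16.1 FPKM.

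Genes averaging 1 FPKM or more were tested as log2(FPKM + 1), HypEV against NorEV, with limma 3.58.1 (R 4.3.3; eBayes, no covariates), and p-values were adjusted by Benjamini-Hochberg over all of them (threshold 0.05). A variance trend was not used, because it gave Gm23935 a standard error of 138 log2 units. The script was tested on simulated data. Values per library were compared by exact permutation over all 20 assignments. Sequences were aligned with Biopython 1.88 and folded with RNAfold 2.7.2. Other steps used Python 3.11.15, pandas 2.3.3, numpy 2.4.6 and matplotlib 3.10.9.

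Named are the 6 members, the genes that overlap them, up to 4 genes of each of the ribosomal and microRNA lists with the highest mean FPKM and the 5 genes most like Gm23935 among those with a mean of at least 10 FPKM; Gm22184, Gm25732 and the miR-124 precursor genes were named after their values were seen. Members and lists were chosen with earlier results of these data known.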

Additional observations from a re-analysis of the deposited data

How the results depend on the processing

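The differences in the family's share of reads, in the share of Gm23935 and in the ratio of Gm25911 to Gm23935 kept their direction in all alternatives run. The p-values of the share of Gm23935 and of the ratio cannot reach the threshold with so few libraries and say nothing about stability. With 1 library left out the differences ranged from 11.5 to 35.3 points, from 0.440 to 1.07 points and from -1.63 to -0.84 log2 units. By summed FPKM the family's share differed by 47.5 points. The labels do not say whether replicate numbers pair the libraries. Deviations from the group means correlated at 0.044, 0.10 and -0.058 between libraries of the same number, and not each library correlated best with its own number. With 3 libraries per group these values cannot decide on pairing. With a replicate block the family's share differed by 23.6 points and 0 genes were called in limma. The count of genes called was 0 in limma and 0 with any 1 library left out. It was 41 with no filter, 23 among genes averaging 5 FPKM or more, 251 with a pseudocount of 0.1, 7 with a variance trend, 231 in limma-voom and 55 in limma-voom with totals outside the family. Of the members, Gm24245 was reversed without NorEV 2 (-0.13) and without HypEV 2 (-0.39), with a range up to 1.002. Only limma-voom called members: Gm23935 (4.03) and Gm25911 (2.902), whose p-values there are not used. With totals outside the family it called Gm25911 (3.15) and Gm24270 (2.06). Scaling to the reads outside the family moved the median log2 fold change over tested genes from -0.44 to -0.12, and that of Gm23935 from 3.90 to 4.35. The share of unadjusted calls that were higher moved from 292 of 2821 to 740 of 2347. Gm23388 had 0 reads, and Gm24245 and Gm24187 had 2 reads each in NorEV 2, where counting error is large.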

Other observations

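MicroRNA genes known from neurons were barely listed in these libraries next to the family. Of 30 names 27 were found, 13 of them were listed at 0 in all 6 libraries, and 14 were tested, of which 0 passed in limma. Their FPKM summed to 82.8 to 95.1 in NorEV and 53.7 to 87.2 in HypEV. The highest was Mirlet7a-1, a precursor gene of the let-7 family, with 9.74, 37.6 and 21.4 FPKM across NorEV and 0, 29.4 and 56.4 across HypEV. Mir29a, Mir181a-2 and Mir9-1 followed, with means of 10.2, 8.03 and 7.92 FPKM over the 6 libraries. Mir181a-2 was above 0 only in NorEV 1 (48.2 FPKM), and Mir9-1 was at 0 in NorEV 1, NorEV 2 and HypEV 2. At 57 nucleotides 1 read was worth 8.19 to 16.1 FPKM, and less in longer entries, so these values rest on few reads. All 3 precursor genes of miR-124, a microRNA abundant in neurons, were listed at 0 in all libraries. The library kit is named for long RNA, and what it recovers of short precursors was not tested.

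Gm25732, another entry annotated as microRNA, lies 39 bases from Gm24245 on the same strand and was listed at 0 in all 6 libraries.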
